A study of Homo sapiens with 8 samples.

Results

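Genes of the hemidesmosome and its laminin-332 ligand, 8 in all, were described across colorectal cancer cells: the laminin chains LAMA3 and LAMB3, the integrin subunits ITGA6 and ITGB4, the collagens COL17A1 and COL7A1, and the plakins PLEC and DST. They were chosen by name, as 8 of 40693 gene symbols in the deposited RNA sequencing tables. A repeated symbol would have been represented by its entry with the highest summed count, but 0 of the 8 symbols were repeated, so no measured value entered the choice of entries. The increases of COL17A1 and ITGB4 after FOXA2 knockdown were already known when the set was put together, so the values of these 2 genes are given as a description without a p-value. The material was SW620 with a lentiviral hairpin against FOXA2 (shFOXA2, 3 libraries), SW620 with a control hairpin (shNC, 3 libraries), untreated SW620 (1 library) and untreated SW480 (1 library). SW620 and SW480 are established human colorectal adenocarcinoma lines that the labels place at Dukes' type C for SW620 and Dukes' type B for SW480. Both hairpin groups carried the lentiviral vector and were selected with puromycin as stable populations. The labels list 2 hairpin targets in FOXA2, and the sample titles point to the first without spelling it out, so a single hairpin stands behind these shFOXA2 libraries as titled.

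Hemidesmosomes are rivet-like junctions that fix epithelial cells to the basement membrane. The integrin α6β4, encoded by ITGA6 and ITGB4, and the transmembrane collagen XVII, encoded by COL17A1, bind laminin-332 outside the cell, while plectin (PLEC) and the epithelial form of BPAG1 (DST) tie the plaque to keratin filaments inside. LAMA3 and LAMB3 encode chains of laminin-332, and collagen VII, encoded by COL7A1, forms the anchoring fibrils beneath it. The simple epithelium of the gut builds a reduced form of the junction around the integrin and plectin, whereas the full complex is typical of stratified epithelium such as skin.

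Total counts were 7478411 to 12068790 in shFOXA2, 12133652 to 13076566 in shNC, 95935348 in SW620 and 72323506 in SW480. Mitochondrial genes took 4.66% to 4.76% of counts in shFOXA2, 4.46% to 4.82% in shNC, 11.1% in SW620 and 11.7% in SW480. FOXA2 itself, the target of the hairpin, was at 8.52 to 11.5 RPKM in shFOXA2 and 18.9 to 20.2 RPKM in shNC, a log2 fold change of -0.91 (SE 0.09). RPKM is the deposited count per kilobase of listed gene length and of library total in units of 1e6 counts. All 7 colorectal epithelium markers had counts in the 6 hairpin libraries and in SW620, and 6 of 7 in SW480, where KRT20 was at 0. Counts were summed over whole cultures, so fewer cells with a transcript and less transcript per cell cannot be told apart. Nothing in the labels ties the 3 libraries of a hairpin group to separate cultures, so p-values measure only the spread between libraries, which may be technical.

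Promoter windows at annotated start sites, among them those of the laminin chains and COL17A1, were searched for the recognition sequences of 2 factor families. Which start these cells use was not measured. RefSeq windows on GRCh38.p14, from 250 bases before to 50 bases after a start site, were searched for 6 of the 8 genes, in 11 windows. The searched motifs were the forkhead sequence TGTTTAC, which FOXA factors recognise, and the AP-1 sequence TGANTCA, both on either strand. The motifs were chosen with the expression results known. The 250 bases upstream of 3 start sites are printed for the genes that carried 1 or more AP-1 matches in that stretch and for COL17A1, which had the largest fold change. Letters are 5′ to 3′ on the gene's strand, and capitals mark AP-1 matches.
LAMA3 (chr18:23872770-23873019, plus strand): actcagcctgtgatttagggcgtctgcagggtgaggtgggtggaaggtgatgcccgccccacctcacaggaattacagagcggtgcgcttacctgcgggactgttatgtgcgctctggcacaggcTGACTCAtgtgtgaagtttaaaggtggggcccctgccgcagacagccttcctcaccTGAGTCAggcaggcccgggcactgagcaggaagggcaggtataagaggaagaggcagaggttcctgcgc
LAMB3 (chr1:209651375-209651624, minus strand): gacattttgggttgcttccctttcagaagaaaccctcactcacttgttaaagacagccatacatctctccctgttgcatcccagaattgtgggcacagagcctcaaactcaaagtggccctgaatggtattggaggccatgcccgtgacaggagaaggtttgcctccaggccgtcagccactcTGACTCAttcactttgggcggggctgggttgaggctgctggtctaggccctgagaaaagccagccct
COL17A1 (chr10:104085881-104086130, minus strand): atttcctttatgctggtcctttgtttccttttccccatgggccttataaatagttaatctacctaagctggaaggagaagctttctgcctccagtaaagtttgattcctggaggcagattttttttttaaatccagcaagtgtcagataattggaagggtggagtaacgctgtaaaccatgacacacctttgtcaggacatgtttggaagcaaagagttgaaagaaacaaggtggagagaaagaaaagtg

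LAMA3 held 2 AP-1 matches, beginning 125 and 69 bases before the start, with no overlap between them. This RefSeq start lies 183577 bases inside the gene as annotated in GENCODE v29. It is an internal start, whereas the longer form of the gene begins at the outer one. LAMB3 held 1 AP-1 match, 67 bases before a start that lies 1092 bases inside the annotated gene, and 0 in its 2 other windows. DST held 1 match, beginning at base 26 after the start in its outermost window, and ITGA6, COL17A1 and COL7A1 held 0. Thus 3 of 6 genes had an AP-1 match in any window, against 9.37% of the 27305 genes in the table, and windows overlap in part. The 6 genes had 11 windows and the 27305 genes had 35116, so the 6 offered more windows per gene for a match. Counted by window, 7.71% of those 35116 held an AP-1 match. Among the 11 windows of the 6 genes, 1 window each of LAMA3, LAMB3 and DST held a match. The forkhead sequence occurred in 0 of 6 genes, against 4.19% of all genes in the table. ITGB4 had no window to search and PLEC was left out of the search, so these shares say nothing of either gene. A match describes letters in a window and shows no binding, and the lack of one says nothing of sites elsewhere.

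The first comparison asked how the 8 genes behaved when FOXA2 was lowered in SW620. COL17A1 and ITGB4, chosen with their increases known, were higher in shFOXA2 and are left out of the counts that follow. Of the other 6 genes, 4, namely LAMA3, ITGA6, PLEC and COL7A1, were higher in shFOXA2 than in shNC at an adjusted p of 0.05 by edgeR, and 0 were lower. Over all 16100 genes tested, 19.2% were called higher and 19.8% lower. The count of 0 lower was also 0 at an unadjusted p under 0.05, and 0 by DESeq2 and by limma-voom. The median log2 fold change over the 6 genes was 0.43, beside 0.01 over all genes tested. The 3 shFOXA2 libraries lay above the 3 shNC libraries for 5 of the 6 genes, every one but DST, beside 24.2% of all genes tested. The sizes were unequal, from no detected difference in DST to a 4.83-fold difference in COL17A1.

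**Figure D1:**
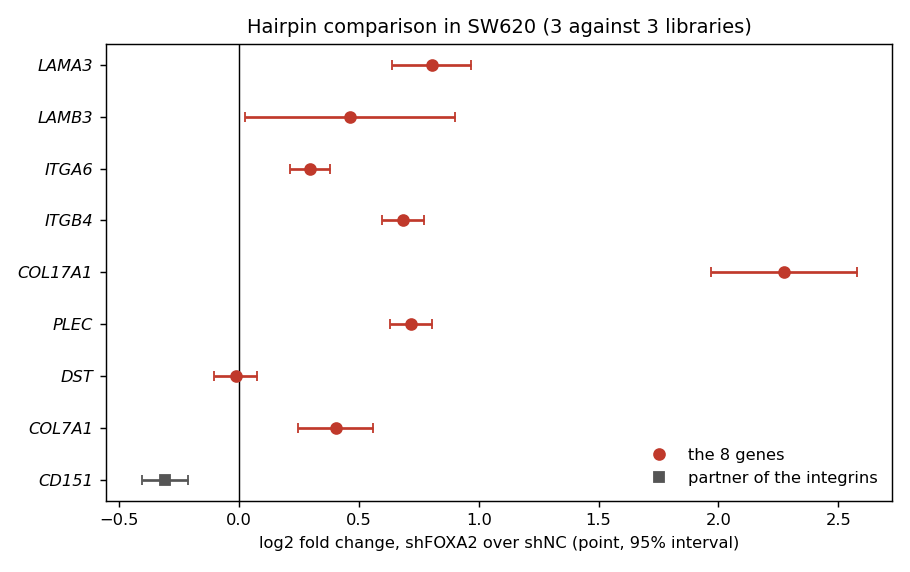
Log2 fold change of each gene in the hairpin comparison, shFOXA2 over shNC (x axis), with 95% intervals from the edgeR fit on 3 against 3 libraries; circles are the 8 genes and the square is CD151, and the line marks no difference. COL17A1 stands at 2.27, DST at -0.01 and CD151 at -0.31. COL17A1 and ITGB4 were chosen with their increases known, so their intervals are a description and not a test.

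Among the laminin-332 chains, LAMA3 (identifier ENSG00000053747.11; chromosome 18, 23689443 to 23956222, plus strand, GRCh38) had 3.45, 4.36 and 4.17 RPKM in shFOXA2, against 2.32, 2.13 and 2.44 RPKM in shNC. All 3 shFOXA2 libraries were above all 3 shNC libraries, and replicate 1 was the lowest of the shFOXA2 libraries. LAMA3, which encodes the α3 chain that integrins bind, rose 1.74-fold, with a log2 fold change of 0.80 (SE 0.08, edgeR adjusted p = 5.52e-10). The listed length of 13522 bases covers long and short transcripts of LAMA3 together, so the short form that enters laminin-332 was not measured on its own.

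LAMB3 (ENSG00000196878.8; chromosome 1, 209614870 to 209652466, minus strand) encodes the β3 chain and had 29.3, 21.3 and 21.1 RPKM in shFOXA2, against 16.8, 18.5 and 17.5 RPKM in shNC. The groups did not overlap, but replicate 1 of shFOXA2 stood well above its other 2 libraries. The log2 fold change was 0.46 (SE 0.16) and did not pass with edgeR (adjusted p = 0.0946). Without shFOXA2 replicate 1 it was smaller, 0.28, and passed (edgeR adjusted p = 0.000118). DESeq2 (adjusted p = 0.0170) and limma-voom (adjusted p = 0.00205) called LAMB3 higher with all 6 libraries.

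The ratio of transcripts within a library, per length, was set beside these changes because these subunits are built into the same protein. LAMB3 stood to LAMA3 at 8.48, 4.89 and 5.05 in shFOXA2, against 7.21, 8.70 and 7.16 in shNC. Here 1 shFOXA2 library lay within the range of shNC and the other 2 below it (log2 difference -0.37, two-sided exact permutation p = 0.3, where 0.1 is the smallest that 3 against 3 allows). Without shFOXA2 replicate 1 that log2 difference was -0.62. In SW620 and SW480 the ratio of LAMB3 to LAMA3 was 3.82 and 1.15. The LAMA3 length covers long and short transcripts, so the size of this ratio does not give the proportion of the chains in laminin-332.

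**Figure D2:**
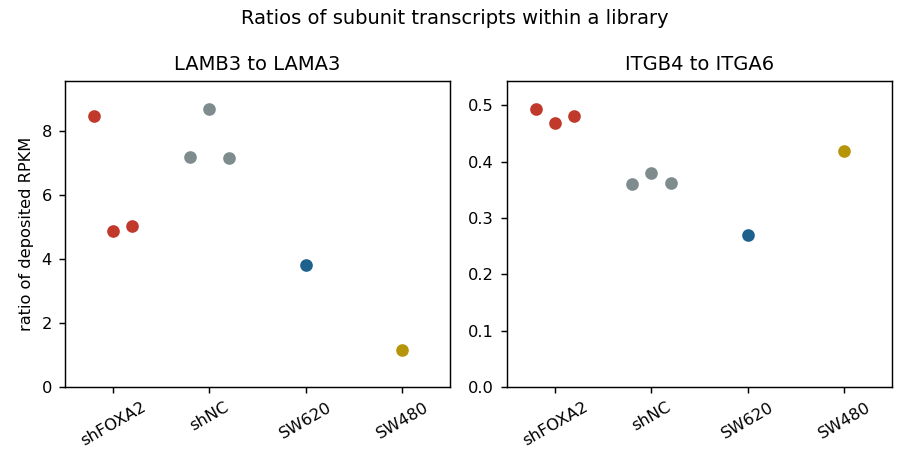
Ratios of deposited RPKM (y axis, linear from 0) between subunit transcripts within each library, for shFOXA2 and shNC (3 libraries each) and SW620 and SW480 (1 each); each point is a library. The groups of hairpin libraries are apart for ITGB4 to ITGA6 and overlap for LAMB3 to LAMA3.

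Both integrin subunits were higher in shFOXA2. ITGA6 (ENSG00000091409.10; chromosome 2, 172427354 to 172506282, plus strand), the α6 subunit shared with the β1 integrin, had 73.3, 76.6 and 79.1 RPKM in shFOXA2, against 62.1, 63.0 and 63.1 RPKM in shNC. The 6 libraries split cleanly by group, and ITGA6 rose 1.23-fold (log2 fold change 0.30, SE 0.04, edgeR adjusted p = 1.41e-07). Exons of 3 annotated antisense transcripts, ITGA6-AS1 among them, overlap those of ITGA6 by 52 to 174 bases, and strand-specific counting is not stated by any label or header.

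ITGB4 (ENSG00000132470.9; chromosome 17, 75721328 to 75757818, plus strand), the subunit whose long cytoplasmic tail binds plectin, had 36.2, 35.9 and 38.0 RPKM in shFOXA2, against 22.4, 23.9 and 22.8 RPKM in shNC. The spread within each group was small beside the gap, and the difference was 1.61-fold (log2 fold change 0.68, SE 0.04). The ratio of ITGB4 to ITGA6 was 0.493, 0.469 and 0.480 in shFOXA2, against 0.361, 0.380 and 0.362 in shNC. It was 1.31 times as high in shFOXA2 (log2 difference 0.39), with groups that did not overlap, and is given without a test for the same reason as ITGB4 itself. Per length, ITGA6 transcripts exceeded ITGB4 transcripts in all 8 libraries, with ratios of 0.269 in SW620 and 0.418 in SW480.

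COL17A1 (ENSG00000065618.12; chromosome 10, 104031286 to 104085957, minus strand), the transmembrane collagen of the plaque, had 4.87, 4.62 and 5.32 RPKM in shFOXA2, from 378, 222 and 342 counts. In shNC it had 0.857, 1.39 and 0.834 RPKM, from 72, 116 and 65 counts. The groups lay far apart, and shNC replicate 2 was the highest of its group. The log2 fold change was 2.27 (SE 0.14), which ranked 35 from the top among 16100 genes, and without shNC replicate 2 it was 2.55. Its RPKM exceeded that of 78.3% to 79.6% of gene symbols in shFOXA2 and of 63.4% to 67.4% in shNC.

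Of the plakins, PLEC was called and DST was not. PLEC (ENSG00000178209.10; chromosome 8, 143915147 to 143976734, minus strand), the cytoskeletal linker plectin, had 65.3, 62.2 and 68.2 RPKM in shFOXA2, against 37.9, 42.7 and 39.6 RPKM in shNC. Its groups were far apart, and it rose 1.64-fold (log2 fold change 0.72, SE 0.04, edgeR adjusted p = 1.87e-17). DST (ENSG00000151914.13; chromosome 6, 56457987 to 56954628, minus strand), which encodes BPAG1 in epithelial, neuronal and muscle forms, had 5.99, 5.93 and 6.65 RPKM in shFOXA2, against 6.38, 6.35 and 6.19 RPKM in shNC. Its groups overlapped, and the log2 fold change of -0.01 had a 95% interval of -0.10 to 0.08 (edgeR adjusted p = 0.837). The listed length of DST is 41453 bases and pools these forms, so its RPKM is low for its count, 1837 to 2999 in shFOXA2 and 3114 to 3458 in shNC, and the epithelial form was not measured alone.

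COL7A1 (ENSG00000114270.11; chromosome 3, 48564073 to 48595267, minus strand), the collagen of anchoring fibrils, had 3.28, 3.32 and 3.36 RPKM in shFOXA2, against 2.39, 2.63 and 2.58 RPKM in shNC. The shFOXA2 libraries were nearly equal and all above shNC, and COL7A1 rose 1.32-fold (log2 fold change 0.40, SE 0.08, edgeR adjusted p = 4.44e-05).

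**Figure D3:**
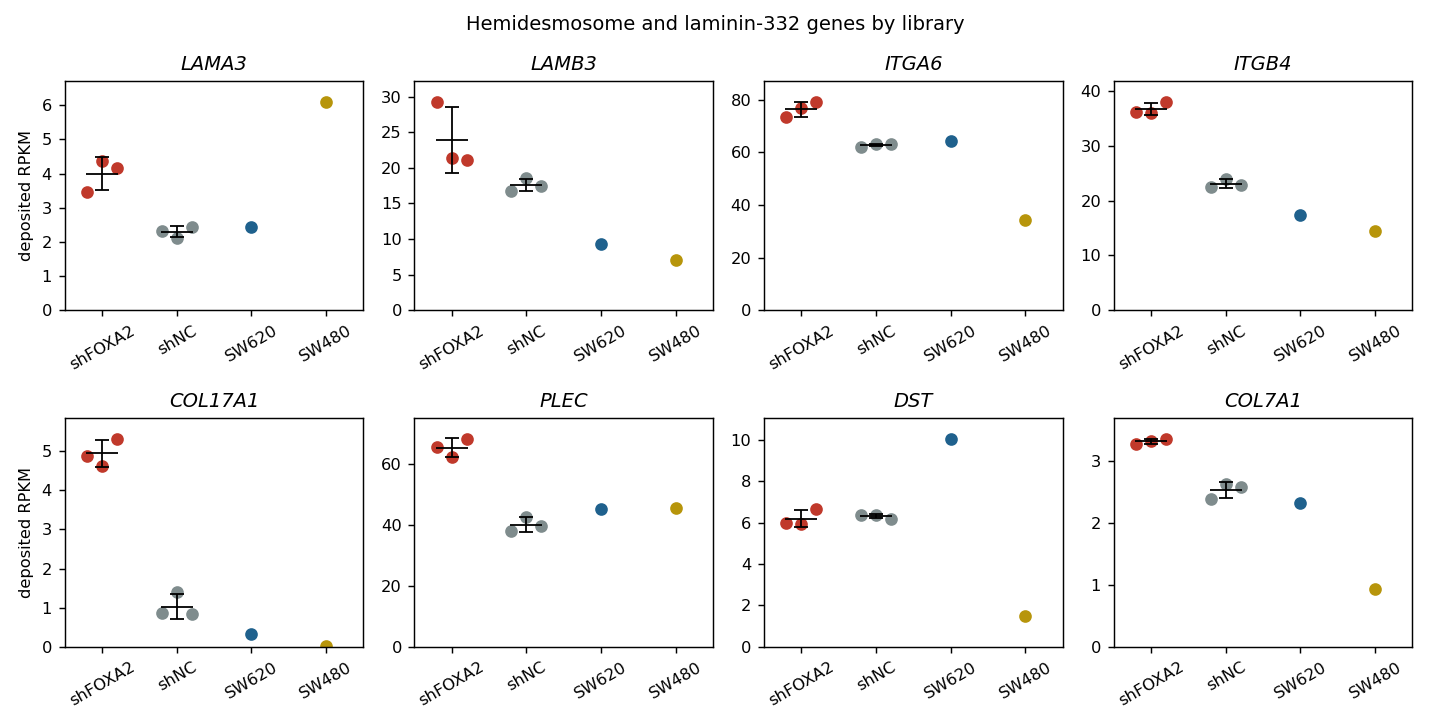
Deposited RPKM (y axis, linear from 0, with its own scale for each gene) of the 8 genes in shFOXA2 and shNC (3 libraries each) and in SW620 and SW480 (1 library each); points are libraries and black bars are mean ± SD. COL17A1 is 4.62 to 5.32 RPKM in shFOXA2, against 0.834 to 1.39 RPKM in shNC, and DST is 10.1 RPKM in SW620, against 1.48 RPKM in SW480.

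Levels per length ranged widely among the 8 genes. In shFOXA2 the order was ITGA6 (76.4 ± 2.90 RPKM, mean ± SD, n = 3), PLEC (65.2 ± 3.02), ITGB4 (36.7 ± 1.11), LAMB3 (23.9 ± 4.65), DST (6.19 ± 0.40), COL17A1 (4.94 ± 0.35), LAMA3 (3.99 ± 0.48) and COL7A1 (3.32 ± 0.04). No neighbours in that order had overlapping libraries. In shNC the order was ITGA6 (62.8 ± 0.53), PLEC (40.1 ± 2.43), ITGB4 (23.1 ± 0.79), LAMB3 (17.6 ± 0.87), DST (6.31 ± 0.10), COL7A1 (2.53 ± 0.13), LAMA3 (2.30 ± 0.16) and COL17A1 (1.03 ± 0.32), with libraries of COL7A1 and LAMA3 that overlapped. COL17A1 was thus the sixth of the 8 genes in shFOXA2 and the last in shNC. These orders rest on listed lengths, which pool transcript forms of LAMA3 and DST, so single forms of these genes could rank otherwise.

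Other genes around the junction were taken from 6 lists. The calls in each list stand beside 19.2% called higher and 19.8% called lower over all 16100 genes tested. Of 9 other laminin chains, 7 could be tested, with 5 higher and 1 lower. The γ1 chain LAMC1 rose (log2 fold change 0.76, SE 0.06, edgeR adjusted p = 9.00e-15), as did LAMA5, the main α chain of gut basement membrane (0.36, edgeR adjusted p = 4.99e-08). The 1 call lower was LAMB4, at 0.667 CPM in shFOXA2 and 1.34 CPM in shNC, a call lost under 8 of the 11 alternative settings that gave an adjusted p (up to 0.190), among them the removal of any hairpin library other than shNC replicate 1. Of 6 other subunits of laminin-binding integrins and their partner, 5 were higher and 1 lower. ITGA3, the α3 subunit that binds laminin-332 outside hemidesmosomes, averaged 30.6 CPM in shFOXA2 and 16.1 CPM in shNC (log2 fold change 0.92, SE 0.09, edgeR adjusted p = 5.58e-11). ITGB1, the β1 subunit, rose by 0.28 (edgeR adjusted p = 3.45e-07). Calls of 2 further α subunits in that list were lost in part, ITGA1 under 4 and ITGA7 under 6 of 12 alternative settings (adjusted p up to 0.113 and 0.104).

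CD151, the tetraspanin that associates with α3β1 and α6β4, fell. It had 43.3, 40.1 and 43.0 RPKM in shFOXA2, against 53.8, 48.9 and 55.5 RPKM in shNC, with no overlap between the groups (log2 fold change -0.31, SE 0.05, edgeR adjusted p = 1.02e-06). An exon of POLR2L on the opposite strand overlaps CD151 by 146 bases.

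Of 13 other basement membrane genes, 7 could be tested, with 2 higher and 2 lower. Over all genes tested, 19.2% were higher and 19.8% lower, so these 2 counts do not set the list apart. The proteoglycans AGRN (0.26, edgeR adjusted p = 4.42e-06) and HSPG2 (0.36, edgeR adjusted p = 5.10e-06) rose, while COL18A1 (-0.23, edgeR adjusted p = 0.000168) and the laminin receptor DAG1 (-0.17, edgeR adjusted p = 0.0222) fell. DAG1 no longer passed when shFOXA2 replicate 2 was left out (edgeR adjusted p = 0.191), nor without shNC replicate 1 (0.0680) or shNC replicate 3 (0.0841), nor with DESeq2 (0.0755) or limma-voom (0.0649). The basement membrane collagen genes COL4A1, COL4A3, COL4A4, COL4A5 and COL4A6 did not pass the expression filter. Of 7 other plakins and kindlins, 5 were higher and 1 lower, with the adhesion regulator FERMT1 (0.32, edgeR adjusted p = 1.04e-06) and periplakin, PPL (0.28, edgeR adjusted p = 2.04e-06), among those higher. The 1 lower was desmoplakin, DSP (-0.19, edgeR adjusted p = 0.000500), the plakin of desmosomes.

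Of 9 proteases that process laminin-332 or shed collagen XVII, 7 could be tested, with 3 higher and 0 lower by edgeR, and also 0 lower at an unadjusted p under 0.05, by DESeq2 and by limma-voom. The sheddases ADAM9 (0.70, SE 0.05, edgeR adjusted p = 4.83e-16) and ADAM17 (0.39, edgeR adjusted p = 0.000320) rose, as did MMP14 (0.67, edgeR adjusted p = 0.000984). Of 5 keratins of basal or simple epithelium, 2 were higher and 0 lower by edgeR, beside 19.2% and 19.8% of all genes tested. The 2 were KRT18 (0.11, edgeR adjusted p = 0.0366) and KRT15 (0.24, edgeR adjusted p = 0.0410). Neither was stable: KRT18 lost its call under 7 of 12 alternative settings (adjusted p up to 0.234) and KRT15 under 10 of 12 (up to 0.247), and each removal of a hairpin library ended at least 1 of these calls. KRT5 had a log2 fold change of -0.20 and was the 1 lower at an unadjusted p under 0.05, and DESeq2 and limma-voom called 0 lower.

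Markers of stratified epithelium were read beside these genes, since the full hemidesmosome belongs to it. Their summed level was 126.6 to 139 CPM in shFOXA2 and 68.8 to 71.5 CPM in shNC, for 6 listed genes. KRT6A, a keratin of activated and wounded epidermis that shares sequence with KRT6B and KRT6C, made up 73.3 to 88.6 CPM of it in shFOXA2 and 21.2 to 23.8 CPM in shNC. The other 5 markers summed to 46.3 to 63.7 CPM in shFOXA2 and 47.1 to 50.3 CPM in shNC. TP63, the defining transcription factor of that epithelium, had 2 to 7 counts in shFOXA2 and 2 to 4 counts in shNC. KRT14 had 198, 13 and 18 counts in shFOXA2, against 21, 17 and 11 counts in shNC, so that replicate 1 of shFOXA2 stood apart. Fibroblast and endothelial markers summed to 10.6, 4.02 and 5.21 CPM in shFOXA2 and 3.33 to 3.91 CPM in shNC over 4 genes in the tables. Replicate 1 of shFOXA2 was again the highest, and COL3A1 was at 0 in all 8 libraries. COL1A1 had 75, 22 and 40 counts in shFOXA2, against 29, 29 and 25 counts in shNC. PDGFRB had 40, 4 and 5 counts in shFOXA2, against 12, 7 and 5 counts in shNC. Leukocyte markers summed to 9.01 to 12.2 CPM in shFOXA2 and 5.73 to 7.98 CPM in shNC, with CD3E at 0 in the 6 hairpin libraries. LYZ was the largest part, with 114, 65 and 78 counts in shFOXA2, against 60, 59 and 66 counts in shNC. PTPRC had 17, 13 and 11 counts in shFOXA2, against 42, 9 and 12 counts in shNC. The part of these markers in the changes of the 8 genes was not tested.

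The second comparison set untreated SW620 beside untreated SW480, with 1 library of each and therefore no test. The intervals given are exact 95% intervals of a ratio of TMM-scaled counts, and they cover counting error only. COL17A1, DST, COL7A1 and ITGA6 were higher in SW620, LAMA3 was lower, and PLEC, ITGB4 and LAMB3 were within 1.27-fold. FOXA2 itself was at 31.6 RPKM in SW620 and 1.69 RPKM in SW480, 17.8-fold higher in SW620. COL17A1, COL7A1 and ITGA6 were thus higher in the line with more FOXA2, although they were also higher in shFOXA2 than in shNC. LAMA3 was higher in shFOXA2 and in SW480, the line with less FOXA2. The part of FOXA2 in the differences between the lines was not tested. Of 8 genes, 1 (DST) was at least 4-fold higher in SW620 with 1 CPM added to each library, against 2.26% of the 21343 genes whose larger count reached 20. None of the 8 was at least 4-fold lower, against 2.97% of those genes. The median log2 ratio was 0.58 over the 8 genes and 0.01 over all of those.

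DST had 10.1 RPKM in SW620 and 1.48 RPKM in SW480, from 39990 and 4435 counts, and was 6.49-fold higher in SW620 (6.29 to 6.70; log2 ratio 2.68 with 1 CPM added). It was the gene of the set with no detected difference in the hairpin comparison. COL17A1 had 196 counts in SW620 and 11 counts in SW480, 0.318 and 0.0237 RPKM, and was 12.8-fold higher in SW620 (7.01 to 26.1). With 1 CPM added its log2 ratio was 1.39, because both levels were low. COL7A1 had 2470 counts in SW620 and 748 in SW480, a 2.38-fold difference (2.19 to 2.58; log2 ratio 1.18 with 1 CPM added).

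In the integrin, ITGA6 had 64.4 RPKM in SW620 and 34.4 RPKM in SW480, 1.79-fold higher in SW620 (1.76 to 1.82; log2 ratio 0.84 with 1 CPM added). ITGB4 had 17.3 RPKM in SW620 and 14.4 RPKM in SW480, a difference of 1.15-fold (1.12 to 1.19; log2 ratio 0.20 with 1 CPM added). PLEC was nearly level, at 45.0 RPKM in SW620 and 45.4 RPKM in SW480, a ratio of 0.947 (0.937 to 0.958; log2 ratio -0.08 with 1 CPM added).

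The laminin chains LAMA3 and LAMB3 lay on opposite sides in the lines. LAMA3 had 2.43 RPKM in SW620 and 6.10 RPKM in SW480, 2.63-fold lower in SW620 (2.52 to 2.74; log2 ratio -1.37 with 1 CPM added). LAMB3 had 9.30 RPKM in SW620 and 7.01 RPKM in SW480, 1.27-fold higher in SW620 (1.20 to 1.33; log2 ratio 0.33 with 1 CPM added). Of the other lists, ITGA1, ITGA3, COL4A2, MMP14 and KRT5 were at least 4-fold lower in SW620 with 1 CPM added, and no gene of those 6 lists was as much higher. KRT5, the basal keratin, had 1427 counts in SW620 and 161795 counts in SW480. The 6 stratified epithelium markers summed to 39.4 CPM in SW620 and 2266 CPM in SW480, with TP63 at 1 count in SW620 and 0 counts in SW480.

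**Figure D4:**
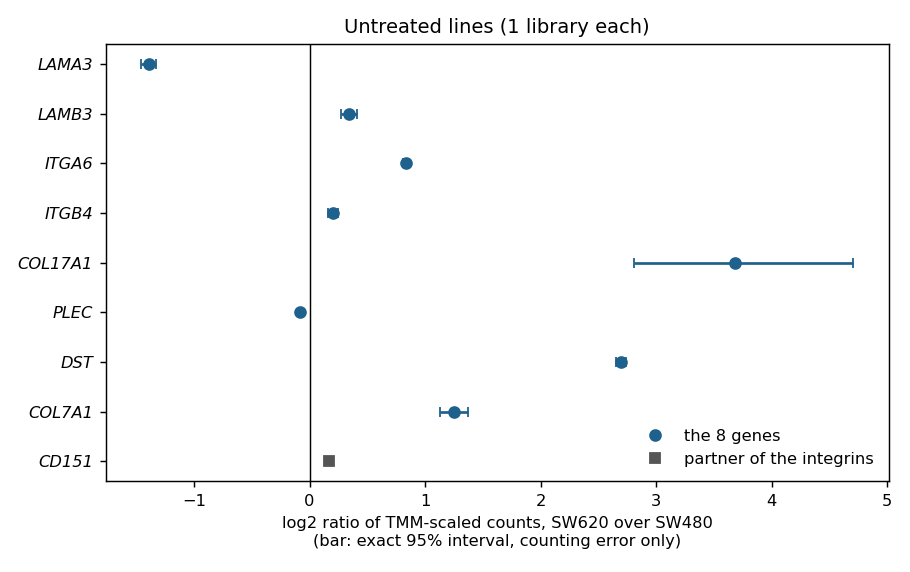
Log2 ratio of TMM-scaled counts in untreated SW620 over untreated SW480 (x axis, nothing added), with exact 95% intervals that cover counting error only; circles are the 8 genes and the square is CD151. COL17A1 stands at 3.68, DST at 2.70 and LAMA3 at -1.39.

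The control hairpin libraries and untreated SW620 are the same line but were not alike for all of these genes. No test was made, since there was 1 untreated library and its mitochondrial share and depth differed from those of the hairpin libraries. COL17A1 was at 0.834 to 1.39 RPKM in shNC and 0.318 RPKM in SW620, and LAMB3 at 16.8 to 18.5 RPKM in shNC and 9.30 RPKM in SW620. DST was at 6.19 to 6.38 RPKM in shNC and 10.1 RPKM in SW620. ITGB4 was at 22.4 to 23.9 RPKM in shNC and 17.3 RPKM in SW620. FOXA2, the target of the other hairpin, also differed, at 18.9 to 20.2 RPKM in shNC and 31.6 RPKM in SW620. ITGA6 (62.1 to 63.1 RPKM in shNC, 64.4 RPKM in SW620) and LAMA3 (2.13 to 2.44 RPKM in shNC, 2.43 RPKM in SW620) were close.

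Patterns over all 8 libraries were compared by the root mean square difference of centred log2 CPM, which is smaller for more similar genes. Among the 8 genes the closest pair was ITGA6 and COL7A1, at 0.22, and the most distant was LAMA3 and COL17A1, at 2.57. Among 12527 candidate genes, those most like COL17A1 were the EGF receptor ligand EREG (0.31) and the phospholipid-binding ANXA1 (0.33), where the median candidate was at 2.38. Those most like ITGB4 were ASPH (0.05) and ezrin, EZR (0.07), and those most like PLEC were ACTB, the cytoplasmic β-actin (0.06), and PCSK5 (0.07). TMEM123 (0.05) and ARPC5, a subunit of the Arp2/3 complex (0.06), were nearest to ITGA6, and IPMK (0.05) and the splicing factor SF3B3 (0.06) to COL7A1. B3GNT2 and KLHL42 (0.14 each) were nearest to LAMA3, BFSP1 (0.13) and OCIAD2 (0.14) to LAMB3, and CMIP (0.07) and FHDC1 (0.09) to DST. These distances describe 8 libraries of 4 conditions.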

How the data were processed

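RNA was sequenced from 8 libraries, and the deposited tables give, for 42713 genes each, raw counts, a listed length and RPKM values. The authors' RPKM equals the deposited count scaled by length and table total, for 100% of values above 20 counts within a relative tolerance of 1e-04. Gene length (an "other" value) comes from the deposited tables too. HOMER and hg19 are named, per the submitters' processing notes, without roles; no header or label states the aligner, the annotation or the use of strand. Gene positions come from GENCODE v29 and promoters from RefSeq, both on GRCh38.

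The hairpin libraries were compared, 3 against 3, with edgeR 4.0.16 quasi-likelihood tests (robust, two-sided, TMM scaling, default filter, R 4.3.3), with Benjamini-Hochberg adjustment over 16100 genes at 0.05. SEs were derived from the F statistic. The untreated lines were compared as ratios of TMM-scaled CPM. The ratio of LAMB3 to LAMA3 used an exact permutation test (Python 3.11.15, scipy 1.17.1). Counts of 3 correspond to 0.0313 to 0.401 CPM. Replicates differed by more than counting noise, with chi-square per degree of freedom of 1.62 to 4.25. It was 3.69 and 4.25 for pairs with replicate 1 in shFOXA2, and 4.16 and 4.06 in shNC. Replicates 2 and 3 were at 1.62 in shFOXA2 and 1.70 in shNC. Alternatives were DESeq2 1.42.0 scaling and test, limma-voom (limma 3.58.1), total counts, no filter, a replicate block, each library left out, and other pseudocounts or count minimums. Scaling without mitochondrial genes was added after seeing the data. The edgeR fit and the exact interval of a count ratio were tried on simulated counts. Those for edgeR had the same spread for every gene and no outlying library, so they do not cover the differences of replicate 1.

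The 8 genes, the lists and the tests were chosen with earlier results of these data known. Named genes were the 8, CD151, FOXA2, up to 2 further called genes per list by p, and 2 most similar genes per member among genes whose log2 CPM averaged 2 or more. Other genes were named after their values were seen. A further gene that the lists and ratios were to include is not reported here.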

Additional observations from a re-analysis of the deposited data

How the results depend on the processing

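LAMA3, ITGA6, PLEC and COL7A1 were higher in shFOXA2 under all 12 alternative settings of the hairpin comparison and passed in each. The log2 fold changes of COL17A1 and ITGB4, known when they were chosen, ran from 2.14 to 2.55 and from 0.65 to 0.70 over these settings. LAMB3 passed with DESeq2 (0.46) and limma-voom (0.46) and without shFOXA2 replicate 1, and its log2 fold change ran from 0.28 to 0.54 with each library left out in turn. DST did not pass in any, and its log2 fold change ran from -0.075 to 0.0098 with libraries left out, with a sign that turned to 0.0098 without shFOXA2 replicate 1 and 0.0096 without shFOXA2 replicate 2. None of the 8 genes was called lower in any of these settings. With the replicate number as a replicate block, 4 of the 6 genes other than COL17A1 and ITGB4 were called higher, and LAMB3 had an adjusted p = 0.159 with edgeR. Deviations of same-numbered libraries from their group means correlated at -0.01, -0.04 and -0.01 over all genes tested. These correlations cannot exclude a shared batch, since noise in single genes can hide one. With the replicate block, no filter, DESeq2 or limma-voom, 0 other laminin chains were called lower, against 1. DESeq2 gave LAMB4 no adjusted p, and 0 to 1 were called lower with a library left out. Other laminin-binding integrin genes called higher were 3 by DESeq2, against 5, and 3 to 4 with a library left out (3 without shFOXA2 replicate 3). Other basement membrane genes called lower were 1 by DESeq2 and by limma-voom, against 2, and 1 to 2 with a library left out. Keratins called higher were 1 with total counts, DESeq2 or limma-voom, and 0 with no filter or the replicate block, against 2, and 0 to 1 with a library left out, while 1 was called lower with total counts or no filter, against 0.

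Between the lines, scaling by total counts, DESeq2 size factors and total counts without mitochondrial genes gave log2 ratios of 0.90, 0.79 and 0.89 for ITGA6, 0.27, 0.16 and 0.26 for ITGB4, -0.013, -0.12 and -0.024 for PLEC, and 2.74, 2.63 and 2.74 for DST. LAMA3 moved to -1.30 with total counts. With 0.1 CPM added COL17A1 had a log2 ratio of 3.05, and 1139 genes were at least 4-fold higher and 1431 lower in SW620, against 482 and 633. The causes were not tested. Depth limits COL17A1 most, with 11 counts in SW480 and 65 to 116 counts in shNC.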
